A study of Rattus norvegicus with 6 samples.

Results

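Syndecans, glypicans, perlecan, agrin and CD44 are surface or matrix proteins that carry or can carry glycosaminoglycan chains, and hyaluronan synthases make the free glycosaminoglycan that CD44 binds. The group described here was named by gene symbol and holds 10 genes: Sdc1, Sdc2, Sdc4, Cd44, Has2, Has3, Hspg2, Gpc1, Gpc4 and Agrn. A locus was found for 9 of them among the 61453 loci of each library, taking the protein-coding locus of highest mean expression where several loci carried the symbol. *Hspg2*, the gene of perlecan, was not analysed here.

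Total RNA of scraped corneal epithelium from male Brown Norway rats was sequenced in 3 diabetic libraries and 3 normal libraries. The diabetic group had received 50 mg/kg of streptozocin, a toxin of the insulin-producing beta cells, in 1 intraperitoneal injection, and the normal control group citrate buffer, 16 weeks before the tissue was taken. The model is therefore one of insulin loss after a chemical toxin. More corneas than libraries were used in each group, and the sources do not say how corneas and rats were divided over the libraries, so the p-values below measure only the spread between these libraries.

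Syndecans span the membrane and use their heparan sulfate chains to hold growth factors and matrix proteins at the cell surface. In the corneal epithelium syndecan-1 is the abundant syndecan, and it is known for its part in the migration of epithelium over a wound. Glypicans carry the same kind of chain on a lipid anchor, whereas agrin and perlecan place it in basement membranes.

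The libraries held 62288901 to 87040253 counts in the diabetic group and 76500184 to 81139312 counts in the normal group. Epithelial markers led: *Aldh3a1*, a corneal crystallin, averaged 9467 FPKM (fragment counts scaled by locus length and by sequencing depth) over the 6 libraries, and the corneal keratin gene *Krt12* averaged 4034 FPKM. Stromal RNA was also present, with keratocyte and stroma markers summing to 1070 to 1231 FPKM in diabetic libraries and 1110 to 1449 FPKM in normal libraries. Of the 14 genes on that stromal list 12 were found and all 12 were tested, led by *Col1a1* and *Kera*. *Ogn* was at 0 in diabetic replicate 1 and normal replicate 2, and no gene of the list was at 0 in all 6 libraries. Lens markers summed to 3.23 to 1433 FPKM in diabetic libraries and 114 to 406 FPKM in normal libraries. Conjunctiva and goblet cell markers summed to 575 to 1241 FPKM in diabetic libraries and 891 to 1460 FPKM in normal libraries, lowest in diabetic replicate 3. That list shares a locus with the epithelial list. Diabetic replicates 2 and 3 stood apart from the other libraries, with scores of 43.8 and 53.1 on principal component 1 (26.2% of the variance), where diabetic replicate 1 scored −28.8 and the normal group −38.9 to −11.2. On principal component 2 (21.8% of the variance) diabetic replicate 3 scored −40.6 and normal replicate 3 −49.1. The other libraries scored 10.8 to 29.3 there.

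None of the 8 genes that could be tested passed with limma, edgeR or DESeq2. A locus passed where the Benjamini-Hochberg adjusted p was under 0.05 over all 42551 loci tested and the fold change over 1.2. The background share of passing loci was 0.0259% with limma on log2(FPKM + 1) and 0.0141% with the quasi-likelihood test of edgeR on counts, so few calls were available to any group. Adjusted p-values of the 8 genes ran from 0.953 to 0.992 with limma and from 0.991 to 0.995 with edgeR. No tested member had an unadjusted p under 0.05 with limma or edgeR, a level that 4.8% of all loci reached with limma. *Has2* lay under the filter of 0.5 FPKM and is described from its counts.

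The 3 libraries of one group never lay wholly above those of the other in any of the 8 tested genes. Over all tested loci, 3.94% were higher and 5.72% were lower in all diabetic libraries than in all normal libraries. The limma log2 fold changes of the 8 genes ran from −0.15 to 0.23 with a median of −0.058, beside a median of −0.0049 over all loci, of which the 5th and 95th percentiles were −0.47 and 0.49. Limma gave 3 positive and 5 negative values, and edgeR gave 4 of each.

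**Figure D1:**
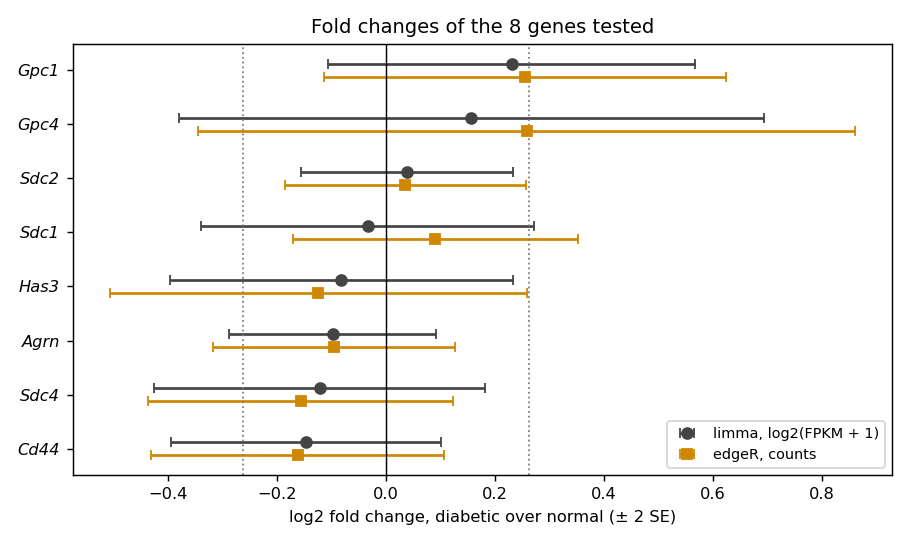
Log2 fold change of diabetic over normal libraries for the 8 genes tested, from limma on log2(FPKM + 1) (circles) and from edgeR on counts (squares), with bars of 2 standard errors to each side and dotted lines at a fold of 1.2. Each bar spans 0, and the limma values lie between −0.15 and 0.23.

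The members covered a wide range of levels. Averaged over the 6 libraries, *Sdc1* stood at 552 FPKM, *Sdc4* at 83.1, *Agrn* at 23.5 and *Sdc2* at 12.6 FPKM, and in this order each gene was above the next in all 6 libraries. *Gpc1* (8.33 FPKM), *Cd44* (7.59 FPKM) and *Gpc4* (7.30 FPKM) overlapped and cannot be ordered. *Has3* followed at 2.11 FPKM and *Has2* at 0.040 FPKM.

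The place of *Cd44* in this order depended on the length of its locus. The ratio of its counts to its FPKM implied a locus of 37.7 kb, against 3.50 kb for *Sdc1* and 2.88 kb for *Sdc4*. Without division by length, *Cd44* averaged 287 CPM (counts scaled by the library total), against 239 for *Sdc4* and 327 for *Agrn*, and ranked 3 of the 9 genes. Comparisons of its FPKM with other genes carry that limit, while comparisons of *Cd44* between groups use the same length throughout.

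**Figure D2:**
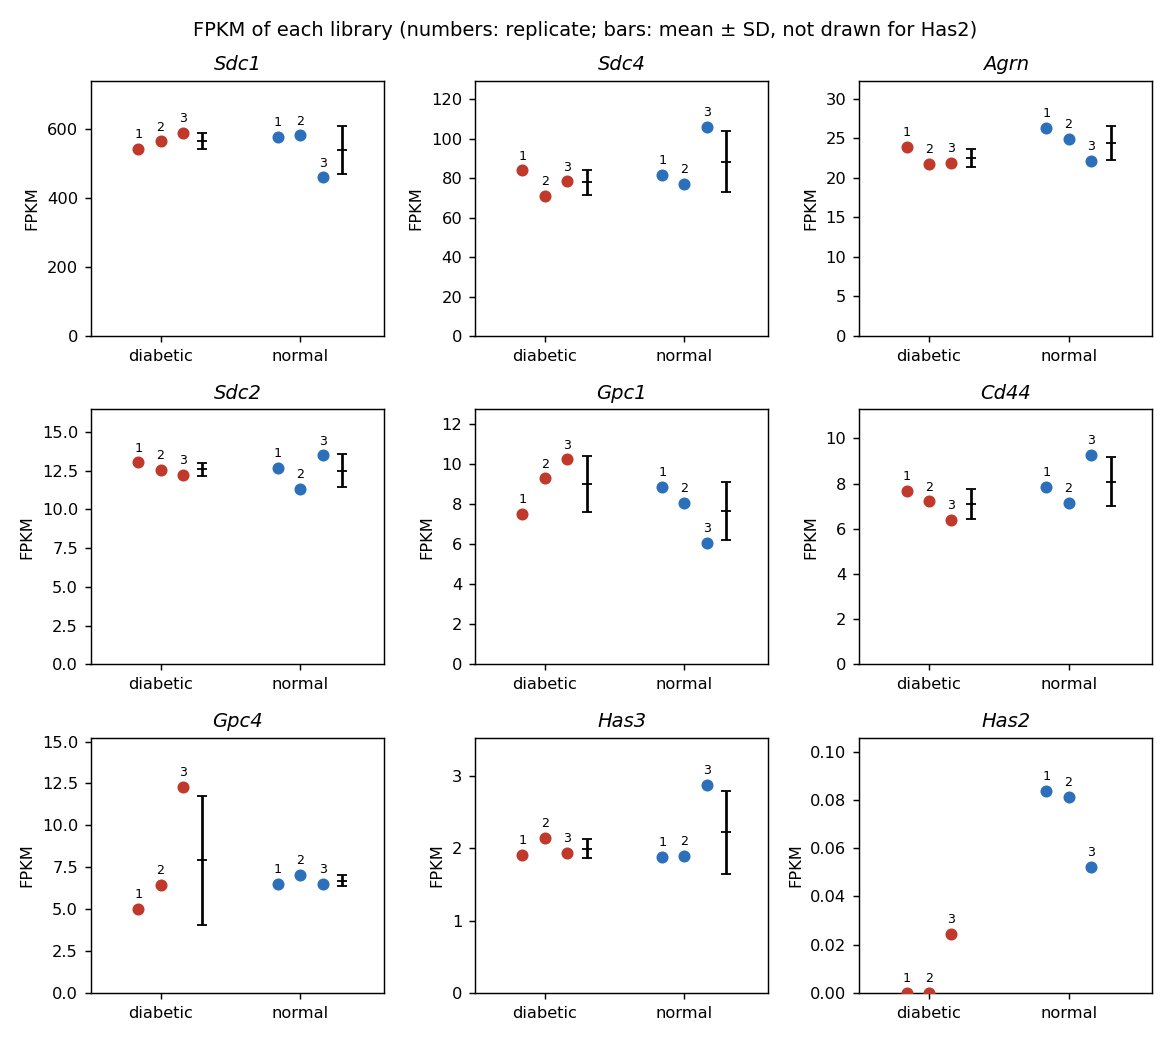
FPKM of the 9 genes with a locus in each library, in order of mean level, with replicate numbers above the points, diabetic libraries in red on the left, normal libraries in blue on the right, and mean ± SD (n = 3) except for *Has2*. The points of the groups overlap in 8 panels, and *Has2* is at 0 in 2 diabetic libraries.

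Among the syndecans, *Sdc1* encodes syndecan-1, the main heparan sulfate proteoglycan of stratified epithelia. It lay on chromosome 6 at 33885495 to 33908016 of the plus strand in the rat build rn6, and it ranked between 13 and 16 of the protein-coding loci in every library. Its level was 542, 563 and 588 FPKM in diabetic replicates 1 to 3, against 576, 581 and 459 FPKM in normal replicates 1 to 3. The groups overlapped, and the low value of normal replicate 3 set the width of its group. The means were 564 ± 22.9 and 539 ± 68.9 FPKM in the diabetic and normal groups (SD, n = 3 each).

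The sign of the *Sdc1* difference depended on the scaling. After quantile normalization limma gave a log2 fold change of −0.03 (SE 0.15), with an interval of 2 SE from −0.34 to 0.27, whereas FPKM without normalization gave 0.07 and edgeR 0.09 (SE 0.13). Leaving out diabetic replicate 1 or 2 also turned the limma value to positive, and leaving out normal replicate 3 turned the edgeR value to −0.02.

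*Sdc4* encodes syndecan-4, a co-receptor of integrins at focal adhesions (chromosome 3, 160868935 to 160891190, minus strand). It stood at 84.0, 71.2 and 78.4 FPKM in diabetic libraries, against 81.9, 77.1 and 106 FPKM in normal libraries. Normal replicate 3 was again the outlying value, this time as the highest. The limma log2 fold change was −0.12 (SE 0.15) and became 0.03 without normal replicate 3.

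*Sdc2* encodes syndecan-2, typical of mesenchymal cells (chromosome 7, 71572941 to 71686044, plus strand). It was the steadiest member, with 13.0, 12.5 and 12.2 FPKM in diabetic libraries and 12.7, 11.3 and 13.5 FPKM in normal libraries. The means differed by less than the spread in the normal group, at 12.6 ± 0.413 and 12.5 ± 1.08 FPKM (SD, n = 3 each), and the limma interval of 2 SE ran from −0.16 to 0.23. That value was −0.02 without normal replicate 2. A minus-strand locus of small RNA genes lies within the span of *Sdc2* and is counted separately, with 1216% as many counts as *Sdc2*. The sources used here do not say whether counting used strand.

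Together with *Sdc3*, at 0.488 and 0.359 FPKM in the diabetic and normal groups, the syndecans summed to 655 ± 20.7 and 640 ± 52.8 FPKM (SD, n = 3 each). *Sdc1* took 86.1 ± 1.15% of that sum in diabetic libraries and 84.0 ± 4.05% in normal libraries. *Sdc4* took 11.9% and 14.0%, and *Sdc2* 1.92% and 1.97%. The syndecan make-up was thus dominated by *Sdc1* in all 6 libraries.

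*Cd44* encodes the main hyaluronan receptor, whose longer splice forms can carry heparan sulfate (chromosome 3, 92696313 to 92783658, minus strand). It stood at 7.68, 7.21 and 6.39 FPKM in diabetic libraries, against 7.86, 7.16 and 9.25 FPKM in normal libraries. Diabetic replicate 3 was the lowest and normal replicate 3 the highest of the 6. The limma log2 fold change was −0.15 (SE 0.12, interval of 2 SE −0.39 to 0.10) and edgeR gave −0.16. The sign stayed negative under all 17 limma alternatives and 11 edgeR alternatives, with limma values of −0.22 to −0.06, though none passed. Of these, moderation without trend and the replicate block leave a limma fold change as it is, so the sign could not change there. Taking the locus of highest mean FPKM whatever its type picked the same locus, so that alternative repeated the main value. Splice forms cannot be told apart in values summed over a locus.

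The upstream sequences of the 3 surface proteoglycan genes with the most counts that have a promoter entry are shown for context of the levels above; *Agrn*, which has more counts than *Sdc4*, is a matrix protein. They come from the RefSeq promoter set of GRCr8, a different build from that of the counts, in which 6 of the 10 genes were matched. Each line gives the 250 bases before the annotated start, 5′ to 3′ on the gene's strand. Capitals mark matches on either strand to 4 motifs. The GC box was searched as GGGCGG, and the AP-1 motif, bound by Fos and Jun proteins, as TGANTCA. The TATA motif was searched as TATAA, and the box bound by the factor NF-Y as CCAAT. The windows are chr6:37281791-37282040 (plus strand), chr3:173592924-173593173 (minus strand) and chr3:109699425-109699674 (minus strand).
Sdc1: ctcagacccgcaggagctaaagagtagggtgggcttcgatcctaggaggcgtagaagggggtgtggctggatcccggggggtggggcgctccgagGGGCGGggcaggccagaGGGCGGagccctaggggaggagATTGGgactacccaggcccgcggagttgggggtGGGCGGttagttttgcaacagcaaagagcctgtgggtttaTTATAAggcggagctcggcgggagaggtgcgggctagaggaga
Sdc4: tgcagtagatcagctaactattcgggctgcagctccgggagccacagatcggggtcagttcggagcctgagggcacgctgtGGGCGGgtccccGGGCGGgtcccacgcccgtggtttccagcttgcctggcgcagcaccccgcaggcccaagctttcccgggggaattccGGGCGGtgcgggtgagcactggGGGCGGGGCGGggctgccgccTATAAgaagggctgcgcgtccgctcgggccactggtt
Cd44: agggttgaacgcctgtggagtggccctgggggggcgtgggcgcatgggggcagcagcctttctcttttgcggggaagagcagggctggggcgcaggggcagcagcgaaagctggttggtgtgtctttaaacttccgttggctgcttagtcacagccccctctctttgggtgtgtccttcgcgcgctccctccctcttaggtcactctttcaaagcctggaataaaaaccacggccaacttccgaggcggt

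The *Sdc1* window held 3 GC boxes, 1 CCAAT box and a TATAA motif matched on both strands at overlapping positions. The *Sdc4* window held 5 GC boxes, of which the last pair overlaps, and 1 TATAA motif. No motif searched was in the *Cd44* window. Of all 33469 promoter windows of this length, 30.5% held the GC box, 6.34% the AP-1 motif, 24.0% TATAA and 34.0% CCAAT. GC content was 65.2%, 70.0% and 60.8% in *Sdc1*, *Sdc4* and *Cd44*, beside a median of 51.2% over all windows. These matches describe letters only.

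Among the hyaluronan synthases, *Has3* was the main one. *Has3* makes hyaluronan at the epithelial surface (chromosome 19, 39063998 to 39077722, plus strand) and stood at 1.91, 2.15 and 1.94 FPKM in diabetic libraries, against 1.89, 1.90 and 2.88 FPKM in normal libraries. Normal replicate 3 was the only library above the others by a clear margin, and without it the limma log2 fold change of −0.08 (SE 0.16) became 0.05. *Has3* held 77.2% and 75.8% of the summed FPKM of *Has1*, *Has2* and *Has3* in the diabetic and normal groups. Its 3′ end overlaps *Chtf8* on the other strand, a separate locus with 258% as many counts as *Has3*.

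*Has2*, which encodes the hyaluronan synthase best known from mesenchymal cells, was near the limit of detection (chromosome 7, 96438046 to 96464049, minus strand). It had 0, 0 and 8 counts in diabetic libraries, against 32, 30 and 21 counts in normal libraries. Every diabetic library was below every normal library, which was also the case for 3.57% of all loci under the filter that had a count. A count of 0 allows up to 0.0345 and 0.0482 CPM in diabetic replicates 1 and 2, and the normal libraries held 0.405, 0.392 and 0.259 CPM. Scaled by the library totals, the pooled diabetic over normal ratio was 0.107 (exact 95% interval 0.0446 to 0.220, for counting error only).

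The *Has2* difference did not pass. With no filter on level, edgeR gave an unadjusted p of 0.0753 and an adjusted p of 0.954. An exact two-sided permutation test over the 3 against 3 libraries gave p = 0.1, the smallest that this number allows. *Has1*, the remaining synthase, averaged 0.588 and 0.655 FPKM in the diabetic and normal groups. Beside *Has2*, the stromal list had mean deviations of −0.38, −0.07 and 0.26 (log2) in diabetic replicates 1 to 3, against 0.19, 0.02 and −0.02 in normal replicates 1 to 3, and its part in the *Has2* values was not tested. In bulk tissue, fewer cells of a type and less RNA per cell cannot be told apart.

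The glypican genes varied more. *Gpc1* encodes a glypican of epithelia and neurons (chromosome 9, 99998275 to 100026818, plus strand) and stood at 7.50, 9.28 and 10.2 FPKM in diabetic libraries, against 8.85, 8.07 and 6.06 FPKM in normal libraries. The groups overlapped through diabetic replicate 1, and normal replicate 3 was the lowest. The limma log2 fold change was 0.23 (SE 0.17, interval of 2 SE −0.11 to 0.57), the largest of the 8 genes. It stayed positive under every alternative run, at 0.09 to 0.35 with limma, though some limma alternatives cannot change the value.

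*Gpc4* encodes a glypican that presents growth factors to receptors (chromosome X, 139354155 to 139464798, minus strand). It stood at 5.01, 6.45 and 12.3 FPKM in diabetic libraries, against 6.50, 7.06 and 6.50 FPKM in normal libraries. Diabetic replicate 3 alone was far above the rest, and without it the limma log2 fold change of 0.16 (SE 0.27) became −0.18. Over the diabetic libraries the mean log2 deviation of the stromal list had the same order as *Gpc4*. Both were lowest in replicate 1 and highest in replicate 3. The summed FPKM of the list was 1070 in both diabetic replicates 1 and 2 and 1231 in diabetic replicate 3. In the normal libraries the list was highest in replicate 1 (0.19) and *Gpc4* in replicate 2. In diabetic replicates 1 to 3, monocyte and macrophage markers (−0.14, 0.18 and 0.22) and pigment cell markers (−0.27, 0.17 and 0.45) had the same order. Lens markers (−0.45, 2.82 and −2.33) did not. Neither did the corneal epithelium, corneal endothelium, conjunctiva, blood vessel, nerve and immediate early lists. The monocyte list had 5 tested loci and the pigment cell list 2. The part of these lists in the *Gpc4* values was not tested. A separate fragment downstream of *Gpc4* carried 21.9% as many counts and was likewise highest in diabetic replicate 3, at 4.23 FPKM.

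*Gpc3*, a glypican that restrains growth factor signalling and is not among the 10 genes, was the glypican of highest level per length. It stood at 11.6, 17.2 and 18.5 FPKM in diabetic libraries, against 26.7, 22.0 and 27.0 FPKM in normal libraries. Every diabetic library was below every normal library, with a limma log2 fold change of −0.65 (SE 0.19) that did not pass (adjusted p = 0.953). Of the 12 tested stromal markers, 9 had a negative and 3 a positive limma log2 fold change. *Lum* and *Thbs4* were lower in every diabetic library, as were 5.72% of all tested loci. None was higher in every diabetic library, and the positive values were those of *Angptl7* (0.63), *Vim* (0.43) and *Fbln1* (0.29). An unadjusted limma p under 0.05 was reached by 4 of the 12, beside 4.8% of all tested loci, and none of the 12 passed. The part of the stromal list in the *Gpc3* values was not tested.

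Of the summed glypican FPKM, *Gpc3* took 46.8 ± 3.35% in diabetic libraries and 62.0 ± 4.57% in normal libraries (SD, n = 3 each), with ranges of 43.7% to 50.4% and 57.7% to 66.8%. *Gpc1* took 27.1 ± 2.89% and 18.8 ± 3.36%, with ranges of 24.1% to 29.9% and 15.0% to 21.2%. *Gpc4* took 22.6 ± 5.53% and 16.5 ± 1.84%, with ranges of 18.9% to 29.0% and 14.9% to 18.5%. *Gpc6* took 2.48 ± 0.120% and 1.46 ± 0.356%, with ranges of 2.37% to 2.61% and 1.05% to 1.72%. The shares of *Gpc3*, *Gpc1*, *Gpc4* and *Gpc6* did not overlap between the groups, and shares of 1 sum are tied to each other. In FPKM itself *Gpc1*, *Gpc4* and *Gpc6* overlapped between the groups. Of these genes only *Gpc3* was lower in every diabetic library, as were 5.72% of all tested loci. No background over all loci was computed for shares. The sums themselves overlapped, at 25.1 to 42.3 FPKM in diabetic libraries and 38.1 to 43.5 FPKM in normal libraries.

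**Figure D3:**
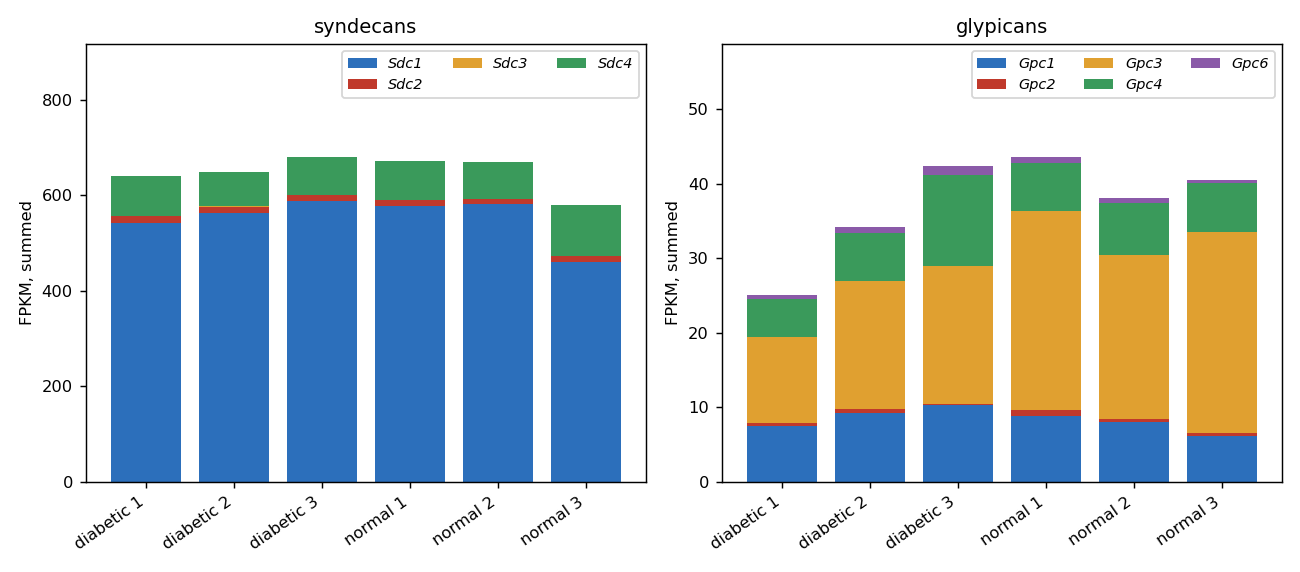
FPKM summed over the syndecans (left panel) and glypicans (right panel) in each library, stacked by gene, diabetic libraries left of normal libraries. *Sdc1* fills most of every syndecan bar, and the *Gpc3* part is smaller in each diabetic library, at 11.6 to 18.5 FPKM, than in each normal library, at 22.0 to 27.0 FPKM.

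*Agrn* encodes agrin, the basement membrane proteoglycan known for gathering acetylcholine receptors at the neuromuscular junction (chromosome 5, 173589819 to 173622821, minus strand). It stood at 23.9, 21.8 and 21.8 FPKM in diabetic libraries, against 26.3, 24.9 and 22.1 FPKM in normal libraries. The groups overlapped through diabetic replicate 1, and the limma log2 fold change was −0.10 (SE 0.10, interval of 2 SE −0.29 to 0.09). It stayed negative under every alternative run, at −0.16 to −0.06 with limma, though some limma alternatives cannot change the value. A short plus-strand fragment at the locus, with 0.296% as many counts, was lower in every diabetic library (limma, adjusted p = 0.953). A longer plus-strand fragment, with 8.30% as many counts, overlapped between the groups (log2 fold change −0.09).

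The highest values of the members fell mostly in normal replicate 3 and diabetic replicate 3, which was not tested. Normal replicate 3 was the highest of the 6 libraries in 4 of the 8 genes (*Sdc2*, *Sdc4*, *Cd44*, *Has3*) and the lowest in *Sdc1* and *Gpc1*, by FPKM. Diabetic replicate 3 was the highest in *Sdc1*, *Gpc1* and *Gpc4* and the lowest in *Cd44*. Over all tested loci these libraries were the highest in 20.8% (normal replicate 3) and 22.2% (diabetic replicate 3). They were the lowest in 16.1% (normal replicate 3) and 18.7% (diabetic replicate 3). After quantile normalization *Sdc4* deviated from its mean by 0.37, *Has3* by 0.30 and *Cd44* by 0.25 (log2) in normal replicate 3, and *Gpc1* by −0.41. The immediate early and stress list had mean deviations of 0.75, −0.86 and −0.45 in diabetic replicates 1 to 3, against 0.10, −0.15 and 0.60 in normal replicates 1 to 3, and its part in these values was not tested.

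**Figure D4:**
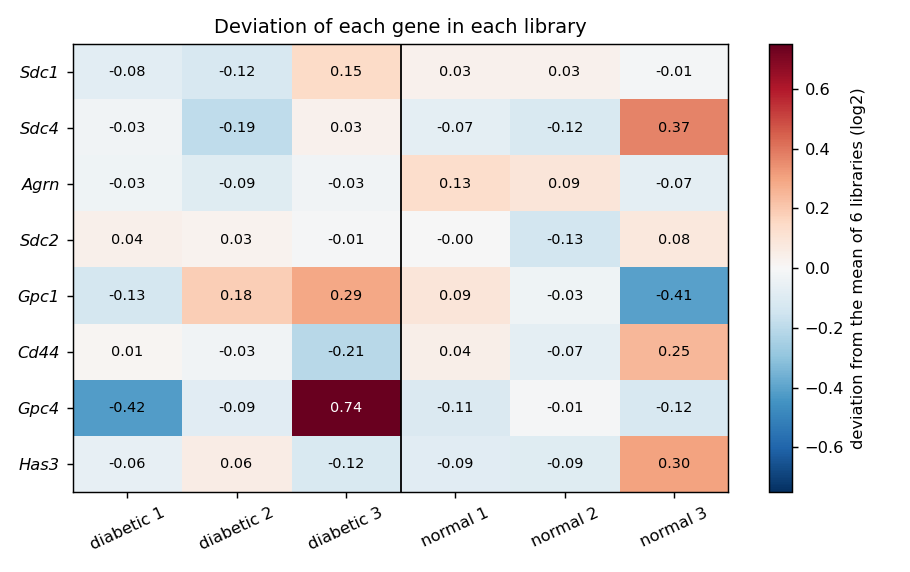
Deviation of each of the 8 tested genes from its mean over the 6 libraries, in quantile-normalized log2(FPKM + 1), with genes down the page in order of level and diabetic libraries left of the line. The strongest cells are *Gpc4* in diabetic replicate 3 (0.74) and diabetic replicate 1 (−0.42) and *Gpc1* in normal replicate 3 (−0.41).

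Patterns over the 6 libraries were compared in quantile-normalized log2(FPKM + 1), centred on the mean of each locus. The loci nearest to *Sdc1* were *Snrk*, *Vps26b* and *Septin2*, with a root mean square difference of 0.021 to 0.030. Those nearest to *Cd44* were *Mab21l1*, *Nsmce4a* and LOC102556092, at 0.028 to 0.031. On this scale *Sdc1* was lowest in diabetic replicate 2 (−0.12) and near its mean in normal replicate 3 (−0.01), its lowest library by FPKM. Quantile normalization sets each value by the rank of the locus in its library. Normal replicates 1 and 2 thus had the same *Sdc1* deviation (0.03), and patterns near *Sdc1* are read on this scale only. Near patterns were common: of 5386 protein-coding loci of at least 5 FPKM, 16.5% lay within 0.1 of *Sdc1* and 5.05% within 0.1 of *Cd44*.

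Other genes of heparan sulfate and hyaluronan biology were read from 10 lists. Of 125 listed genes 115 were found and gave 84 tested loci, of which 44 had a positive and 40 a negative limma log2 fold change, with a median of 0.0061. None passed with limma (lowest adjusted p 0.804) or edgeR (lowest adjusted p 0.325). An unadjusted limma p under 0.05 was reached by 4 loci, or 4.76%, which is near the background of 4.8%. In each direction 5 loci, or 5.95%, did not overlap between groups, beside the 3.94% (higher) and 5.72% (lower) of all loci.

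*Ndst1* had the smallest p of these lists. It encodes the N-deacetylase and N-sulfotransferase that opens the sulfation of heparan sulfate chains. It stood at 7.39, 7.17 and 8.75 FPKM in diabetic libraries, against 4.49, 4.68 and 4.83 FPKM in normal libraries. All diabetic libraries were above all normal libraries, the limma log2 fold change was 0.65 (SE 0.11), and it did not pass (adjusted p = 0.804 with limma and adjusted p = 0.325 with edgeR). In the same list of 14 tested loci, 7 values were positive and 7 negative. *Hs3st3a1*, a 3-O-sulfotransferase, averaged 1.56 and 0.578 FPKM, and *Papss2*, which makes the sulfate donor, 1.77 and 1.14 FPKM in the diabetic and normal groups, both with overlapping libraries.

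Chain synthesis and carriers gave no call. Among 11 tested loci of linker and chain synthesis 4 were positive and 7 negative, with a median of −0.05 and no locus without overlap. *B4galt7*, which adds a linker galactose, averaged 2.48 and 3.22 FPKM, and *Ext1*, a chain polymerase, 6.62 and 6.13 FPKM in the diabetic and normal groups. Of 3 tested other carriers, *Col18a1*, the gene of collagen XVIII of basement membranes, averaged 3.81 and 2.50 FPKM in the diabetic and normal groups (limma log2 fold change 0.44), with overlapping libraries.

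Editing and breakdown of heparan sulfate gave 7 positive and 2 negative values of 9, with a median of 0.15 and no call. *Hpse*, the gene of heparanase, stood at 14.9, 8.48 and 4.79 FPKM in diabetic libraries, against 5.55, 4.50 and 5.90 FPKM in normal libraries. The groups overlapped through diabetic replicate 3, whereas diabetic replicates 1 and 2 were above all normal libraries. *Gusb*, a lysosomal glucuronidase, was lower in every diabetic library, at 5.74 ± 0.340 and 6.89 ± 0.350 FPKM in the diabetic and normal groups (SD, n = 3 each), and did not pass (adjusted p = 0.953).

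Of 13 tested loci of hyaluronan precursors, synthesis and breakdown, 6 were positive and 7 negative. *Cemip*, which takes part in hyaluronan breakdown, averaged 6.06 ± 0.680 and 7.95 ± 0.711 FPKM in the diabetic and normal groups and was lower in every diabetic library (limma log2 fold change −0.32). It did not pass (adjusted p = 0.953 with limma).

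Of 19 hyaluronan-binding proteins and receptors only 4 were tested, and 3 had no count in any library. Among 6 tested sheddases and their inhibitor, *Mmp14* averaged 23.1 and 27.0 FPKM and *Timp3* 7.81 and 6.55 FPKM in the diabetic and normal groups. The 12 cytoplasmic partners had 8 positive and 4 negative values. Of these 12, 2 were higher and 1 was lower in every diabetic library, beside 3.94% and 5.72% of all tested loci. *Esrp2*, which regulates epithelial splicing including that of *Cd44*, averaged 18.7 and 21.2 FPKM in the diabetic and normal groups, with overlapping libraries. The 10 matrix partners and receptors of perlecan and agrin divided into 5 positive and 5 negative values, with *Lamb1* at 11.7 and 13.1 FPKM.

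**Figure D5:**
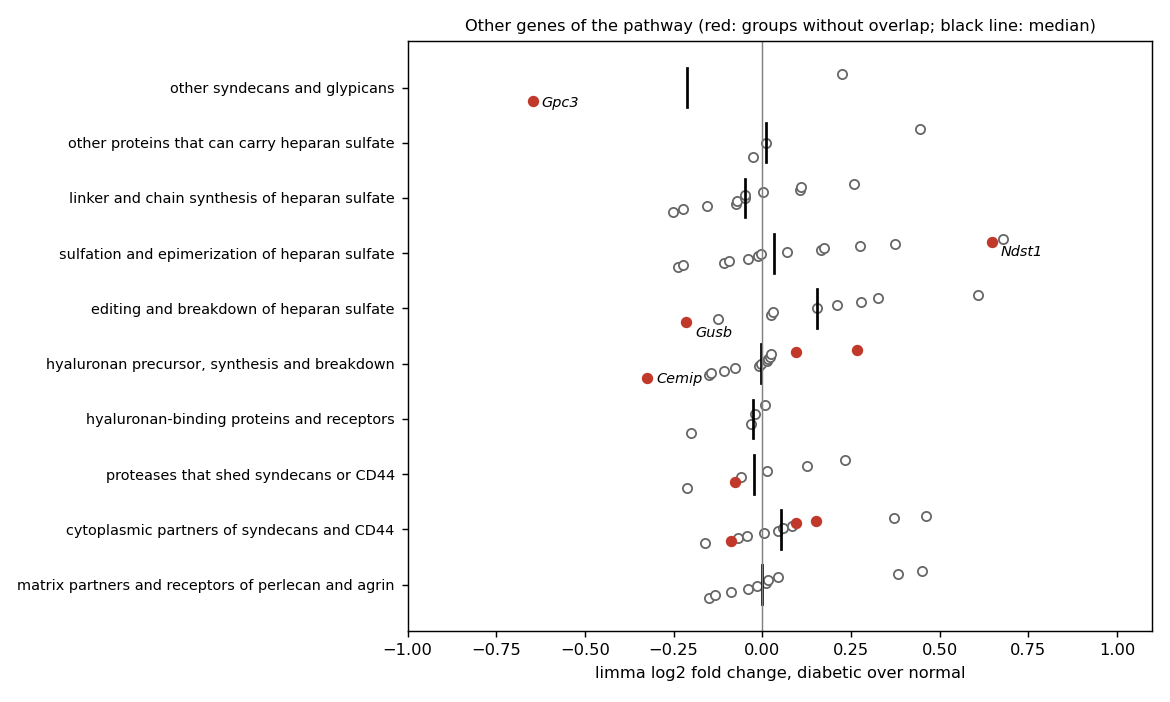
Limma log2 fold change, diabetic over normal, of the 84 tested loci of the 10 lists, with a black line at each median and red points where the libraries of the groups did not overlap, 4 of them named. *Ndst1* (0.65) and *Gpc3* (−0.65) are the outermost red points, and most medians lie near 0.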

How the data were processed

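RNA of the corneal epithelium was measured in 3 diabetic and 3 normal libraries. The authors deposited, per locus of the rat build rn6, raw counts and FPKM, the counts divided by length and depth. The submitters' processing notes name cutadapt, FastQC and Bowtie2, with no versions, and for the assembler and counter the name was not given in the sources used here. A placeholder in 86380 deposited FPKM values, where the count was 0, was set to 0. Loci of mean FPKM 0.5 or more (42551) were put on the scale log2(FPKM + 1), quantile-normalized and tested with limma 3.58.1 (eBayes with trend), so fold changes of low genes are understated. Counts of these loci were tested with edgeR 4.0.16 (TMM, quasi-likelihood) and DESeq2 1.42.0 in R 4.3.3. Passing needed a Benjamini-Hochberg adjusted p under 0.05 over all loci and a fold over 1.2. The scripts were tested on simulated data. A count of 0 allows up to 3 counts of a library total, and intervals cover counting error only. Members and lists were chosen with earlier results of these data known. Genes named are all members, up to 3 of smallest p of each pathway list, up to 2 of highest FPKM of each marker list, and the 3 nearest patterns of *Sdc1* and *Cd44*. *Lum*, *Thbs4*, *Angptl7*, *Vim*, *Fbln1*, *Ogn*, *Chtf8* and the families of the members were added after their values were seen. 1 gene that the rule names is not reported here. Alternatives were other normalizations, pseudocounts, filters and moderation, DESeq2, a replicate block and leaving out each library. Another took the locus of highest mean FPKM whatever its type. Small RNA, circular RNA and PCR results were not analysed here.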

Additional observations from a re-analysis of the deposited data

How the results depend on the processing

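No member passed under any of the 17 limma and 11 edgeR alternatives. The median limma log2 fold change of the members ran from −0.095 to 0.041 over them, and was positive without normal replicate 3. Of 224 member values, 210 kept their direction and side of the threshold and 14 changed sign. The 210 include limma values from moderation without trend and from the replicate block, where the direction cannot change. They also include limma values for the locus of highest mean FPKM whatever its type. That alternative picked the same locus for every tested member, so its values repeated the main ones. For *Sdc1* the limma value of −0.03 became 0.0837 with median scaling, 0.0764 with cyclic loess, 0.0745 with no normalization and 0.04996 with protein-coding loci only. With 1 library left out, limma values ran from −0.115 to 0.0143 for *Sdc1*, from −0.175 to 0.404 for *Gpc4*, from −0.0201 to 0.0871 for *Sdc2*, from −0.209 to 0.0345 for *Sdc4* and from −0.149 to 0.0480 for *Has3*. The edgeR values ran from −0.0181 to 0.149 for *Sdc1*, from −0.178 to 0.501 for *Gpc4*, from −0.0285 to 0.0857 for *Sdc2* and from −0.225 to 0.0981 for *Has3*. The cause of these changes was not tested.

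The count of passing loci moved more than the members did. The 11 limma calls became 6 with a pseudocount of 0.1, 3 with no filter, 3 with protein-coding loci only, and 3 to 10 with 1 library left out. The 6 edgeR calls became 99 with DESeq2 and 2 to 14 with 1 library left out. The cause was not tested. Libraries of the 2 groups share replicate numbers, but same-numbered libraries did not deviate together (correlations of −0.0092, 0.025 and 0.032), so the numbers were not taken as pairs. With the replicate block 1 locus passed with limma and 0 with edgeR, and no member. The 3 libraries a group and the few counts of *Has2* limit what could be detected.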
